A study of Mus musculus with 4 samples.

Results

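The 37 genes described here are transcripts of neural progenitors and neurons that were present in isolates of mouse microglia. They comprise 14 genes of radial glia and intermediate progenitors and 23 genes of neurons. They were chosen by name and not by a rule on a measured value, though earlier results of these data were known. All 37 were listed among the 26051 features of the count table. The isolates were of microglia, the macrophages that reside in the brain, taken from mice labelled as embryonic day 14 and profiled by messenger RNA sequencing. In microglia of the ko group the histone acetyltransferase gene Hat1 was a target of conditional deletion by Cre recombinase at loxP sites. The 2 libraries titled ko (numbers 1 and 3) were compared with the 2 titled ff (numbers 2 and 5). The labels do not spell out ff, which is taken here as the comparison group, and they name no Cre driver, deleted exon or strain. They do not say whether a library came from 1 animal or a pool, so the p-values measure only the spread between these libraries, which may be technical.

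In the embryonic cortex, radial glia line the ventricle, divide as stem cells and guide newborn neurons outward along their fibres. Notch signalling keeps them in that state: its effectors Hes1 and Hes5 repress the genes that start neuronal differentiation. Daughter cells become projection neurons directly or by way of intermediate progenitors, which are marked by Eomes, while inhibitory interneurons migrate in from the ventral forebrain. Microglia descend from another lineage, through progenitors of the yolk sac. The title of the series asks how Hat1 in microglia bears on the neural stem cells of the cortex.

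Some facts of the whole series bear on these genes. Depth was 14814846 counts in ff 2, 15970403 in ff 5, 18990917 in ko 1 and 15747757 in ko 3. Hat1 itself had 650 and 1149 counts in ff against 737 and 581 in ko, or 57.8 ± 19.1 against 37.9 ± 1.84 in CPM, which scale counts to library size (SD, n = 2 each). The adjusted p was 0.298 by edgeR's quasi-likelihood test. Transcripts of the deleted gene thus remained in both ko libraries, and the ratio did not pass the threshold. Library 1 of ko stood apart: it had 3 counts of Xist where the other 3 libraries had 2847, 3646 and 3986, and 3188 counts of the Y-linked Ddx3y where they had 0. Such counts are those of male cells in ko 1 and of female cells in the other 3 libraries. Sex thus differed between ko 1 and the rest, and its part in the values below cannot be told apart from that library. Library ko 1 also held 65 of 14562 genes at 3 or more times the level of every other library, against 4, 3 and 2 such genes for ff 2, ff 5 and ko 3. For several genes and medians below, the value without this library is given too.

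The genes formed a small fraction of each isolate. Their summed level was 2106 CPM in ff 2, 2607 in ff 5, 1933 in ko 1 and 2517 in ko 3, or 0.191% to 0.263% of the library. The 17 microglia and macrophage markers found in the table summed to 25787 to 28797 CPM, between 10.2 and 14.3 times as much. Per kilobase of transcript, the complement genes C1qa and C1qb, which microglia express strongly, led those markers at 4533 and 3563 CPM per kb. Sums of CPM are not divided by transcript length. Other tissue macrophages express both genes too. Pf4 and Mrc1, which in the brain mark macrophages of its borders, stood at 1649 and 1126 CPM per kb, above the more microglial P2ry12 at 402.0, Cx3cr1 at 385.3, Tmem119 at 156.0 and Sall1 at 11.7. These 6 genes, and Aif1 below, were named after their values were seen. Markers of microglia were thus present beside those of other macrophages, and which of these cells gave most of the signal was not tested. Between the groups 2 of the 17 markers were higher in ko, Tmem119 and Aif1, and 1 was lower, Cx3cr1, with a log2 fold change of -0.92 ± 0.08 and an adjusted p of 0.00108 by edgeR.

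Within the list, transcripts that radial glia share with astrocytes led. On the per-kilobase scale, Fabp7, a fatty-acid binding protein of radial glia, stood at 188.8 CPM per kb. The microtubule destabiliser Stmn1, which dividing cells outside the nervous system also express, stood at 163.8. The glutamate transporter Slc1a3 stood at 119.4, Hes5 at 67.9, the receptor phosphatase Ptprz1 at 54.5 and the growth-cone protein Gap43 at 53.5. Slc1a3, Ptprz1, Fabp7, Hes5 and the water channel Aqp4 together made up 58.8% to 65.7% of the summed CPM of the list. These 5 are called astroglial genes below, a grouping made after their values were seen.

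**Figure D1:**
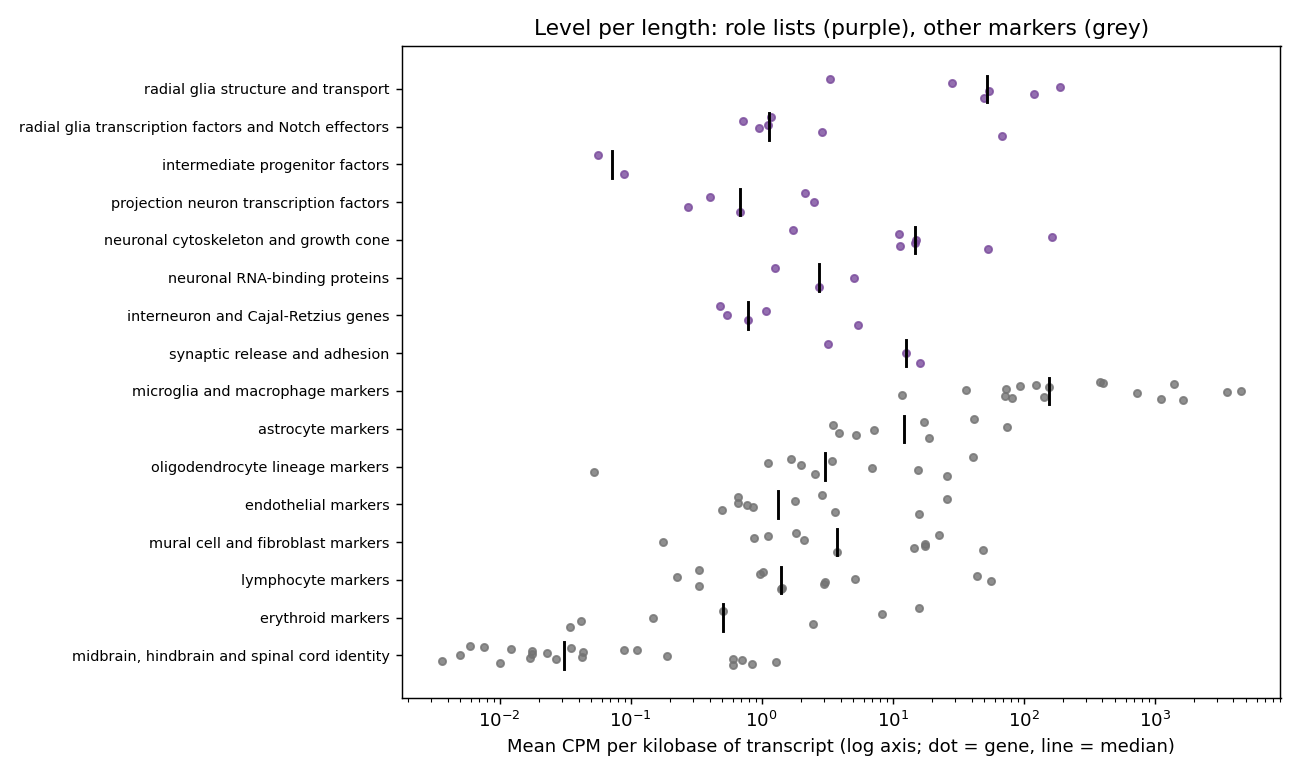
Mean level per kilobase of transcript (CPM per kb, log axis) of each gene in the role lists of the 37 genes (purple) and in marker lists of other cell types and regions (grey); each dot is 1 gene averaged over 4 libraries and each black line a list's median. The radial glia structure list has a median of 52.28, the intermediate progenitor factors 0.07 and the microglia markers 155.95.

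The transcription factors that define cortical progenitors were scarce, so the name cortical progenitor rests on few counts. Eomes, the marker of intermediate progenitors, had 0 and 2 counts in ff against 8 and 4 in ko. Neurog2, the proneural factor of dorsal progenitors and the higher of these per kilobase, had 2 and 4 counts in ff against 4 and 3 in ko. Of related factors, Neurog1 had 4 counts and Insm1 7 over all libraries. Emx1, Emx2, Lhx2 and Pax6, which pattern the dorsal forebrain, lay between 0.745 and 6.83 CPM in single libraries. Neither Eomes nor Neurog2 reached the count filter, so 35 of the 37 genes were tested.

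Markers of other neural cells stood beside them. Gfap, an intermediate filament of astrocytes that rodent radial glia of the embryonic cortex largely lack, had 1297, 2270, 1837 and 1823 counts in ff 2, ff 5, ko 1 and ko 3. All 8 astrocyte markers were detected, and their summed level was 445.3 and 591.6 CPM in ff and 582.0 and 520.1 in ko. Of 10 oligodendrocyte lineage markers, 9 passed the filter, led by Olig1 at 41.4 CPM per kb and Cnp at 25.9, while Mog, of mature oligodendrocytes, had 6 counts in all. The myelin gene Mbp had 1146, 949, 1381 and 1391 counts in ff 2, ff 5, ko 1 and ko 3. Regional genes gave little: of 32 midbrain, hindbrain and spinal cord genes 22 were in the table and 5 were tested, with Barhl2 at 1.29 CPM per kb and Lbx1 at 0.841. Those levels were close to the 1.12 of Emx2 and the 0.953 of Lhx2 on the same scale. The forebrain list had 10 of 13 genes tested, led by Nr2f2 at 5.87 CPM per kb, which is also a gene of veins and other cells, and the signalling factor Wnt7b at 3.23. The globins counted were of the adult kind, with 344 counts of Hbb-bs over all libraries and 2 of the embryonic Hbb-y. Gfap and Mbp at these levels and the near absence of Eomes and Neurog2 are not the profile usually seen in cortex at the labelled stage, so the stage and the source of these transcripts are taken from the labels and were not tested. The genes are therefore called progenitor and neuron genes after the lists they came from, with no statement on which cells held them.

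**Figure D2:**
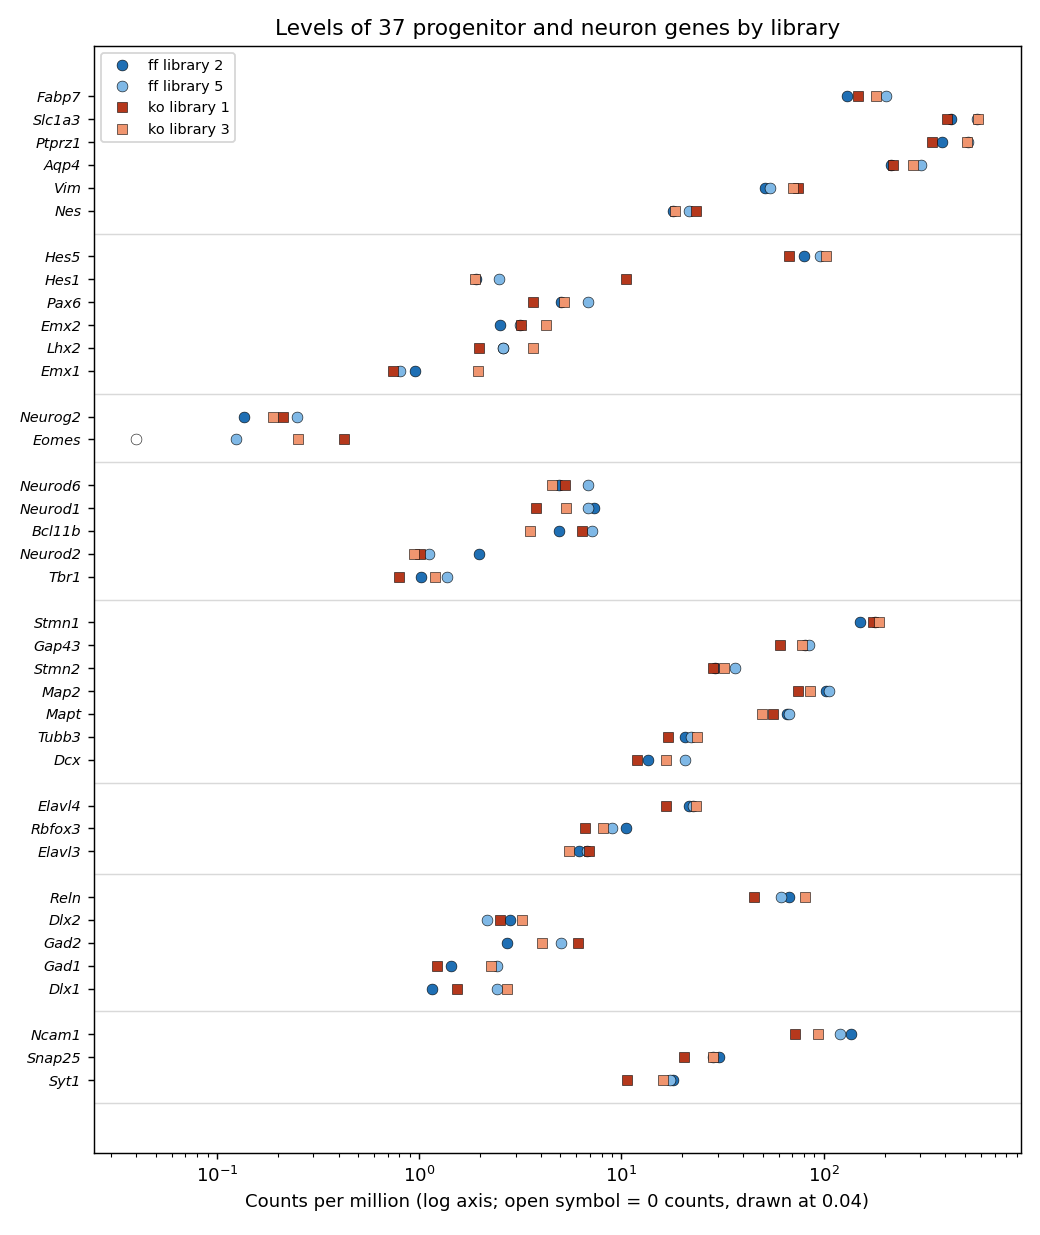
Level of each of the 37 genes in the 4 libraries (CPM, log axis; circles ff, squares ko), in blocks by role, ordered within a block by level per kilobase. Symbols of both groups are interleaved in most rows, Hes1 has 1 high library (ko 1, 10.6 CPM), and Eomes and Neurog2 lie under 0.5 CPM.

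No progenitor or neuron gene passed the threshold between ko and ff. Across all 15840 genes tested, 188 were higher in ko (1.19%) and 82 lower (0.518%), and among the 35 tested genes of the list the count was 0 in each direction at an adjusted p of 0.05, where 1.7% of all genes passed in either direction. An unadjusted p under 0.05 was found for 5 of the 35, against 16.2% of all genes. DESeq2 called 1 of them, Ncam1 (4.22% of all genes), and limma-voom 0 (1.1%). DESeq2 size factors also gave 0 (1.76%), as did the stricter count filter (2.18%) and the offset for length and GC content (1.56%). Without scaling 1 passed, Vim (2.3% of all genes), and without a filter 4, Vim, Map2, Mapt and Ncam1 (5.32%). Leaving out ff 2 or ff 5 gave 0 (1.19% and 2.73% of all genes), leaving out ko 1 gave 3 (6.07%) and leaving out ko 3 gave 8 (7.34%). The smallest adjusted p was 0.0525, for Vim. In 24 of the 35 the 95% interval of the fold change lay within 2-fold in either direction, while for the rest the interval reached past a 2-fold difference in at least 1 direction. In a bulk sample, fewer cells of a type and less RNA per cell cannot be told apart, so each value below is a level in the isolate and not in a cell.

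Progenitor genes were centred near 0 and neuron genes below it, and the difference between them was not tested. The 12 progenitor genes tested had a median log2 fold change (ko minus ff) of 0.03, with 6 above 0 and 6 below. The 23 neuron genes had a median of -0.26, with 19 below 0, where all genes had a median of 0.01 and 49% lay below 0. Both ko libraries were below both ff libraries for 8 neuron genes and above for 0, against 23.8% and 25.8% of all genes. Among progenitor genes 2 were above and 0 below. Over all 35 genes, 10 had groups that did not overlap (28.6%), a smaller share than the 49.6% of all genes tested. Without ko 1 the neuron median was -0.05, without ff 5 it was -0.07, and without ko 3 it was -0.45, so its size rested on single libraries.

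**Figure D3:**
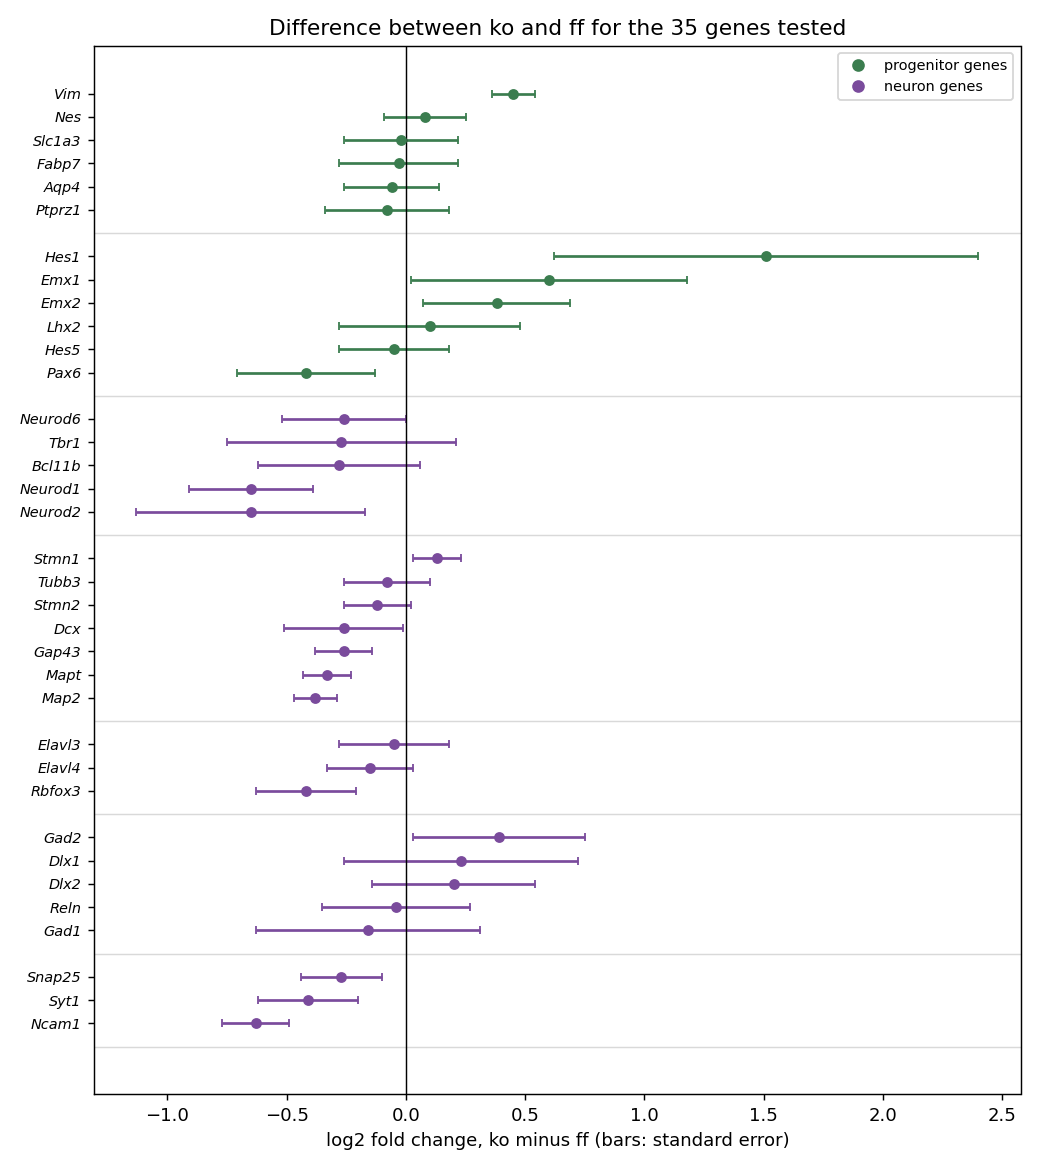
log2 fold change (ko minus ff) of the 35 genes tested, with standard errors derived from edgeR's test statistic, in blocks by role (green progenitor, purple neuron, and the line marks 0). Of the neuron genes 19 of 23 lie left of 0, the progenitor genes lie 6 on each side, and Hes1 has the widest bar.

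Among the structural and transport genes of radial glia, Vim had the smallest adjusted p. Vim encodes the intermediate filament vimentin of radial glia, which macrophages, endothelial cells and fibroblasts also make. It had 754 and 877 counts in ff 2 and ff 5 against 1400 and 1117 in ko 1 and ko 3. Both ko libraries lay above both ff libraries, at 72.5 ± 2.9 CPM against 52.9 ± 2.17 (SD, n = 2 each). On the log2 scale the difference was 0.45 ± 0.09 (SE), with an adjusted p of 0.0525 by edgeR, and over the alternatives that p ran from 0.000458 to 0.254. Markers of mural cells and fibroblasts, which also express Vim, summed to 307.1 and 457.9 CPM in ff and 706.7 and 510.1 in ko. Of those 12 markers 11 were in the table, and none was at 0. In both ko libraries 5 of the 11 were higher and 1 was lower, beside 25.8% and 23.8% of all genes tested. Dcn, a matrix proteoglycan of fibroblasts, had 839 and 927 counts in ff against 3018 and 1060 in ko, and Rgs5, of pericytes, had 1063 and 1643 against 1150 and 2170. All 10 endothelial markers had a log2 fold change above 0, with a median of 0.39, and 0 passed the threshold. Of these, 2 were higher in both ko libraries and 0 lower. The part of any of these cell types in the Vim result was not tested.

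Nes, the other filament of neural stem cells, had 262 and 350 counts in ff against 437 and 293 in ko. Its groups overlapped, and the log2 fold change was 0.08 ± 0.17.

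The remaining genes of this role did not separate ko from ff and were split within each group. Slc1a3, which clears glutamate into radial glia and astrocytes, had 6251 and 9259 counts in ff 2 and ff 5 against 7611 and 9235 in ko 1 and ko 3. This was 500.6 ± 105.3 CPM in ff and 493.8 ± 125.3 in ko, a log2 fold change of -0.02 ± 0.24 with a 95% interval of -0.69 to 0.65 and an adjusted p of 0.978. The high values were ff 5 and ko 3, 1 library in each group. Fabp7 had 1919 and 3292 counts in ff against 2773 and 2881 in ko, or 167.7 ± 52.1 against 164.6 ± 24.1 CPM. Its log2 fold change was -0.03 ± 0.25, with an interval of -0.73 to 0.68 and an adjusted p of 0.973. The ff libraries enclosed both ko libraries. Ptprz1, a phosphatase that binds matrix and growth factors on radial glia and oligodendrocyte precursors, had 5669 and 8341 counts in ff against 6454 and 8084 in ko. Its level was 452.3 ± 93 CPM in ff and 426.7 ± 117.5 in ko, with a log2 fold change of -0.08 ± 0.26 and an adjusted p of 0.912. Aqp4, a channel of astrocyte end-feet, had 3160 and 4860 counts in ff against 4118 and 4375 in ko, and a log2 fold change of -0.06 ± 0.20. For none of these did the groups separate.

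Hes5, the Notch effector with the highest level among the transcription factors of radial glia, had the same split. It had 1172 and 1541 counts in ff against 1267 and 1628 in ko. Its level was 87.8 ± 11.2 CPM in ff and 85.1 ± 24.9 in ko, with a log2 fold change of -0.05 ± 0.23, an interval of -0.65 to 0.55 and an adjusted p of 0.946. The promoter windows of the 4 astroglial genes found in the promoter table are printed because these genes varied together between libraries. Each is 250 bases ending just before the transcript start, on the strand of the gene, from RefSeq on GRCm38.p6, with the motif TGGGAA (the core read by Rbpj, the DNA-binding partner of Notch) or its reverse complement in capitals. The windows are chr15:8710808-8711057 on the minus strand (Slc1a3), chr10:57784673-57784922 on the plus strand (Fabp7), chr6:22875252-22875501 on the plus strand (Ptprz1) and chr4:154960673-154960922 on the plus strand (Hes5).
Slc1a3: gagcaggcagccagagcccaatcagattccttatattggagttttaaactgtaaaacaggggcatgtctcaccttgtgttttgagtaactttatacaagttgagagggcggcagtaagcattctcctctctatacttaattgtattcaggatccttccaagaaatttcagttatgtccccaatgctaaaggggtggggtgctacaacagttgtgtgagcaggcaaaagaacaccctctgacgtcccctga
Fabp7: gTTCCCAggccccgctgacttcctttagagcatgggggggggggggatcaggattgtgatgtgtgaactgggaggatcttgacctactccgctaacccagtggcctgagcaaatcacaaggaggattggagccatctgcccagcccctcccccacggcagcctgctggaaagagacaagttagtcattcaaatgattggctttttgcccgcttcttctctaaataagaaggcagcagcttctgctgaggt
Ptprz1: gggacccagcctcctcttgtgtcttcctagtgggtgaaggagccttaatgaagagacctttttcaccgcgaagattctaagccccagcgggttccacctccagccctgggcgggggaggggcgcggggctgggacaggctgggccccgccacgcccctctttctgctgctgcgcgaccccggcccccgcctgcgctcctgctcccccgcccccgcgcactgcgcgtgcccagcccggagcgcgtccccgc
Hes5: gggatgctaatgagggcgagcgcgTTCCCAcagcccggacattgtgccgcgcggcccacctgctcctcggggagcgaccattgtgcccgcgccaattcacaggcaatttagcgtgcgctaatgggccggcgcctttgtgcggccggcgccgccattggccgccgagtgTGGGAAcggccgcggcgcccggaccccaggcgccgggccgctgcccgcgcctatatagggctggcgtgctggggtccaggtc
Hes5 carried 2 copies, at 226 to 221 and at 82 to 77 bases before the start, in opposite orientations, which 2.77% of all 32851 promoter windows matched or passed in number. Fabp7 carried 1 copy, 249 to 244 bases before the start, and Slc1a3 and Ptprz1 carried 0. Of the 29 listed genes with a promoter in the tables, 4 (13.8%) held the motif, namely Emx2, Fabp7, Hes5 and Lhx2, against 24.1% of all 27025 genes. The E-box CAGATG, read by proneural factors, was found in 4 of the 29 (13.8%), Elavl4, Fabp7, Gad2 and Neurod2, against 16.3% of all genes. GC content was 44.8% in the Slc1a3 window and 71.6% in those of Ptprz1 and Hes5, around a median of 52.4% over all windows. Both motifs were searched on both strands, and CAGATG can share its last letters with TGGGAA. A match is a run of letters and was not tested as a binding site.

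Hes1, the other Notch effector, did not follow Hes5. It had 28 and 40 counts in ff 2 and ff 5, 199 in ko 1 and 30 in ko 3. A single ko library was high, and the other lay with ff. The level was 2.2 ± 0.407 CPM in ff and 6.24 ± 6.15 in ko, and the log2 fold change of 1.51 ± 0.89 had a 95% interval of -0.92 to 3.95 and an adjusted p of 0.486. Without ko 1 the log2 fold change was -0.23, and without ko 3 it was 2.26 with an adjusted p of 8.61e-05 by edgeR. Hes1 is 1 of the 65 genes that exceeded every other library by at least 3-fold in ko 1. That group also held the macrophage genes Spi1 and C1qc, the ubiquitous Rac1 and the oligodendrocyte factor Olig2, so the excess was not limited to neural transcripts. The GC content of the transcripts of these genes had a median of 51.7%, against 49.9% for all genes tested. What sets ko 1 apart for them was not tested.

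The patterning factors of the dorsal forebrain were measured on few counts. Emx1, a homeobox factor of cortical progenitors, had 14 and 13 counts in ff against 14 and 31 in ko. Only ko 3 was high, at 1.95 CPM, and the groups overlapped. Its level was 0.881 ± 0.104 CPM in ff and 1.35 ± 0.855 in ko, with a log2 fold change of 0.60 ± 0.58, an interval of -0.75 to 1.94 and an adjusted p of 0.655. Without ko 3 the log2 fold change was -0.24. Its relative Emx2 had 37 and 51 counts in ff against 60 and 67 in ko. Both ko libraries were above both ff libraries in CPM by a narrow margin (3.19 against 3.17), and the log2 fold change of 0.38 ± 0.31 did not pass. Emx2 shares 264 exon bases with Emx2os on the opposite strand in the GENCODE annotation of GRCm38, and the counting strand is not given in the sources used here. In all, 10 of the 37 genes share exon bases with another gene, 8 of them on the opposite strand and 5 with a partner in the count table. Lhx2, a selector of cortical identity, had 38, 42, 37 and 58 counts in ff 2, ff 5, ko 1 and ko 3. Pax6, which drives neurogenesis by radial glia, had 74, 110, 69 and 83, and a log2 fold change of -0.42 ± 0.29. Neither separated the groups.

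All 5 transcription factors of projection neurons were lower in ko on average, and 0 of them passed the threshold. Neurod1, a proneural factor of young neurons, had 108 and 110 counts in ff against 71 and 84 in ko. Both ko libraries were below both ff libraries, at 4.54 ± 1.07 CPM against 7.1 ± 0.376. A log2 fold change of -0.65 ± 0.26 came with an interval of -1.24 to -0.06 and an adjusted p of 0.273 by edgeR. Neurod1 shares 201 exon bases with Cerkl on the same strand, so some reads could belong to either. Neurod2, its relative in maturing cortical neurons, had 29 and 18 counts in ff against 19 and 15 in ko. The groups were apart, at 1.55 ± 0.608 CPM in ff and 0.979 ± 0.0464 in ko, with a log2 fold change of -0.65 ± 0.48 and an adjusted p of 0.54. Without ff 2 its log2 fold change was -0.19. Neurod6, the member of this role with the highest level per kilobase (2.51 CPM per kb), had 72 and 110 counts in ff against 99 and 72 in ko. Its groups overlapped, at 5.87 ± 1.36 against 4.91 ± 0.517 CPM, with a log2 fold change of -0.26 ± 0.26 and an adjusted p of 0.675. Tbr1, of early-born deep-layer neurons, had 15, 22, 15 and 19 counts in ff 2, ff 5, ko 1 and ko 3, and Bcl11b, of neurons that project below the cortex and of some lymphocytes, had 72, 116, 120 and 56.

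The neuronal cytoskeleton genes had a median of -0.26, and 3 of 7 had both ko libraries below both ff libraries, beside 23.8% of all genes. The median was -0.05 without ko 1 and also without ff 5, so its size rested on those libraries. Map2, a microtubule protein of dendrites, had 1505 and 1717 counts in ff against 1402 and 1360 in ko. This was 104.6 ± 2.85 CPM in ff and 80.2 ± 7.86 in ko, a log2 fold change of -0.38 ± 0.09 with an adjusted p of 0.106. Mapt, which encodes the axonal microtubule protein tau, had 969 and 1085 counts in ff against 1056 and 789 in ko. Its level was 66.7 ± 0.937 against 53 ± 4.57 CPM, with a log2 fold change of -0.33 ± 0.10 and an adjusted p of 0.159. Gap43, a membrane protein of growth cones, had 1185 and 1363 counts in ff against 1138 and 1237 in ko. It stood at 82.7 ± 2.73 against 69.3 ± 12.3 CPM, with a log2 fold change of -0.26 ± 0.12, an interval of -0.55 to 0.03 and an adjusted p of 0.365. In Map2 and Gap43 ko 1 was the lowest library, and in Mapt ko 3 was. Without ko 1 the log2 fold change of Gap43 was -0.10, and without ko 3 it was -0.45 with an adjusted p of 0.0209 by edgeR.

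Stmn1 had the opposite sign. It had 2231 and 2891 counts in ff against 3278 and 2985 in ko, or 165.8 ± 19.4 against 181.4 ± 9.69 CPM. The groups overlapped, with a log2 fold change of 0.13 ± 0.10, an interval of -0.10 to 0.36 and an adjusted p of 0.553. Its neuron-specific relative Stmn2 had 428, 589, 533 and 512 counts in ff 2, ff 5, ko 1 and ko 3. Tubb3, the tubulin used as a marker of neurons, had 304, 356, 320 and 376, and Dcx, of migrating young neurons, had 198, 333, 224 and 265. The groups overlapped in all 3, and their log2 fold changes were -0.12 ± 0.14, -0.08 ± 0.18 and -0.26 ± 0.25.

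None of the 3 RNA-binding protein genes of neurons passed the threshold. Elavl4, the highest of the 3 at 5.1 CPM per kb and a stabiliser of neuronal transcripts, had 319 and 365 counts in ff against 314 and 373 in ko. It stood at 22.2 ± 0.652 against 20.1 ± 4.81 CPM, with a log2 fold change of -0.15 ± 0.18 and an adjusted p of 0.735. Rbfox3, the NeuN antigen of mature neurons, had 156 and 145 counts in ff against 124 and 128 in ko. Both ko libraries were lower, at 7.34 ± 1.04 against 9.82 ± 1.15 CPM, and the log2 fold change of -0.42 ± 0.21 had an interval of -0.92 to 0.07 and an adjusted p of 0.38. Elavl3, of the same family as Elavl4, had 90, 109, 130 and 87 counts in ff 2, ff 5, ko 1 and ko 3 and overlapping groups.

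Genes of interneurons and Cajal-Retzius cells gave 0 calls, and all 5 had overlapping groups. Reln, the secreted guide of cortical layering and the highest of the role at 5.45 CPM per kb, had 987 and 994 counts in ff against 851 and 1282 in ko. The ff libraries were alike and the ko libraries fell on both sides of them, at 64.5 ± 3.93 against 63.1 ± 25.1 CPM. The difference on the log2 scale was -0.04 ± 0.31, with an interval of -0.89 to 0.82 and an adjusted p of 0.971, and without ko 3 it was -0.51 with an adjusted p of 0.0141. Gad2, which makes the transmitter GABA, had 40 and 81 counts in ff against 115 and 64 in ko. It stood at 3.88 ± 1.63 against 5.08 ± 1.48 CPM, with a log2 fold change of 0.39 ± 0.36 and an adjusted p of 0.641. That value was 0.04 without ko 1 and 0.02 without ff 2, against 0.87 without ff 5 and 0.65 without ko 3. Gad1, the other GABA-synthesising enzyme, had 21, 39, 23 and 36 counts in ff 2, ff 5, ko 1 and ko 3. Dlx1 and Dlx2 are homeobox factors of ventral progenitors that make interneurons. In the same order Dlx1 had 17, 39, 29 and 43 counts, and Dlx2 had 41, 35, 47 and 51. Dlx1 shares 335 exon bases with Dlx1as on the opposite strand.

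Synaptic and adhesion genes were lower in ko on average for all 3 members, with a median of -0.41. The median was -0.15 without ko 1 and -0.73 without ko 3. Ncam1, a cell adhesion molecule of neurons and glia, had 2011 and 1933 counts in ff 2 and ff 5 against 1360 and 1483 in ko 1 and ko 3. Both ko libraries lay below both ff libraries, at 83 ± 14.9 against 128.6 ± 12.1 CPM. Its log2 fold change of -0.63 ± 0.14 came with an interval of -0.96 to -0.31 and an adjusted p of 0.0901 by edgeR, which did not pass. DESeq2 gave -0.64 with an adjusted p of 0.00173, and over all alternatives the adjusted p ran from 4.18e-09 to 0.362. Leaving out ko 1 gave a log2 fold change of -0.47 (adjusted p of 0.00657 by edgeR), and leaving out ko 3 gave -0.83 (0.000158). Ncam1 shares 151 exon bases with Gm11149 on the opposite strand. The calcium sensor of vesicle release Syt1 had 264 and 280 counts in ff against 201 and 254 in ko, and a log2 fold change of -0.41 ± 0.21. Snap25, which encodes a protein of the machinery that fuses synaptic vesicles with the cell membrane, had 445 and 457 in ff and 381 and 452 in ko, and -0.27 ± 0.17. Syt1 separated the groups and Snap25 did not, since its ko 3 value of 28.5 CPM lay just above the lowest ff value of 28.4. Without ko 1 the log2 fold change was -0.15 for Syt1 and -0.05 for Snap25. Without ko 3 it was -0.73 for Syt1 (adjusted p of 0.0329 by edgeR) and -0.54 for Snap25 (0.0483).

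The wider synaptic and adhesion genes lay on the same side. Of 25 such genes outside the 37, 24 were tested, 0 were higher and 1 was lower at the threshold. That gene was Vamp2, a fusion protein of synaptic and other secretory vesicles, with 650 and 598 counts in ff against 456 and 414 in ko. It stood at 40.7 ± 5.07 against 25.2 ± 1.29 CPM, with a log2 fold change of -0.69 ± 0.13 and an adjusted p of 0.0429 by edgeR. The call was lost without ff 2 (-0.56, adjusted p of 0.221) and with limma-voom (0.0716), and it held under the other alternatives. In this list 22 of 24 log2 fold changes were below 0, the median was -0.37 and 17 had both ko libraries below both ff libraries, beside 23.8% of all genes. The median stayed between -0.55 and -0.29 under every alternative run, including each library left out. Markers of the oligodendrocyte lineage, whose precursors also express Ncam1 and synaptic adhesion genes, summed to 316.6 and 302.5 CPM in ff and 277.3 and 330.9 in ko. Of the 9 tested, 3 were lower in both ko libraries and 2 higher, beside 23.8% and 25.8% of all genes. Their part in the synaptic values was not tested.

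Other neuronal lists outside the 37 gave 1 call in all. Among 20 tested cytoskeleton genes, 0 rose and 1 fell, with a median of -0.16. The 1 was Map1b, a microtubule protein of growing axons, with 6113 and 5700 counts in ff against 4579 and 3953 in ko. It stood at 385.4 ± 44.4 against 246.5 ± 3.88 CPM, with a log2 fold change of -0.64 ± 0.09, an adjusted p of 0.0165 by edgeR and a highest p of 0.047 over the alternatives. Projection neuron factors had 22 tested, 0 past the threshold and a median of -0.19, and 13 of them were lower in both ko libraries, beside 23.8% of all genes. The most expressed per kilobase were Id2 and Nfib, both also expressed outside neurons. Nfib stood at 142.7 ± 2.04 against 110.9 ± 5.5 CPM (adjusted p of 0.0751 by edgeR) and Id2 at 104.3 ± 2.28 against 97.5 ± 7.56 (adjusted p of 0.615). Interneuron and Cajal-Retzius genes had 16 tested, 0 past the threshold and a median of -0.02, with Calb2 at 4.88 CPM per kb and Sp8 at 3.26 as the most expressed.

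Progenitor lists outside the 37 gave no call either. All 26 Notch pathway genes were tested, 0 passed, and the median was 0.06. Ncstn, which encodes nicastrin and is in wide use in other cells, was the most expressed at 150.1 CPM per kb. The other radial glia and progenitor list had 19 tested, 0 past the threshold and a median of 0.02. Its most expressed members, the endothelin receptor Ednrb at 626.9 CPM per kb and the antiproliferative gene Btg2 at 169.3, are not specific to progenitors. The forebrain identity list had 10 tested, 0 past the threshold and a median of 0.28, and the midbrain, hindbrain and spinal cord list had 5 tested and 0 past it.

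A regular pattern among the genes ran across the groups. In 15 of the 35 tested genes (42.9%), ff 5 and ko 3 both lay above ff 2 and ko 1, against 14% of all genes tested. The reverse order held for 0 of the 35 and for 1903 of the 15840. This split was taken up after the values were seen, and ff 5 with ko 1 against ff 2 with ko 3 was not counted. The pattern was found in 7 of 12 progenitor genes and 8 of 23 neuron genes. Nes, Vim and Hes1 were among the progenitor genes without it. As many neuron genes, 8 of 23, had both ko libraries below both ff libraries, beside 23.8% of all genes. For the 5 astroglial genes, ff 5 was 1.2 to 1.56 times ff 2, and ko 3 was 1.23 to 1.52 times ko 1. For each of the 5, libraries of the same group differed by more than the group means did.

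Summed over roles, the progenitor genes reached 1321 CPM in ff 2, 1788 in ff 5, 1302 in ko 1 and 1759 in ko 3. The neuron genes summed to 784.5, 819.1, 630.9 and 758.1 CPM in the same order. The ratio of neuron to progenitor sums was 0.594 and 0.458 in ff and 0.485 and 0.431 in ko, so the groups overlapped. Library ko 1 was the lowest of the 4 for 20 of the 35 genes, 14 of them neuron genes, and ff 5 was the lowest for 1.

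Some markers of other cells had the same order, and others did not. Endothelial markers, all 10 tested and none at 0, summed to 92.9 CPM in ff 2, 135.7 in ff 5, 105.2 in ko 1 and 186.3 in ko 3, the same order of ff 5 and ko 3 above the other libraries. Cldn5, a tight junction gene of brain vessels, had 311, 622, 529 and 921 counts in the 4 libraries as listed, and the transporter Slco1c1 had 565, 892, 721 and 1089. Of the 10 endothelial markers 7 had ff 5 and ko 3 above the other libraries and 3 did not, beside 14% of all genes with that order. Of the astrocyte markers, Gfap lay at 88.4, 141.0, 97.8 and 115.0 CPM in ff 2, ff 5, ko 1 and ko 3, and Aldh1l1, chosen after its values were seen, at 57.1, 89.4, 61.3 and 83.5. Of the 8 astrocyte markers 4 had this order (Gfap, Aldh1l1, Agt and Fgfr3) and 4 did not. The list's sum did not have it either, since ko 1 at 582.0 CPM lay above ko 3 at 520.1. The gap junction gene Gja1, for example, had 210.7, 233.5, 297.2 and 206.9 CPM. The microglia markers summed to 28797, 27303, 27610 and 25787 CPM, lower in ff 5 than in ff 2 and in ko 3 than in ko 1. Within ko that gap was about the size of the gap in C1qc alone, at 2361 CPM in ko 1 and 516.6 in ko 3. C1qc is among the genes that stood out in ko 1, so the ko gap is not a trait of the whole list. The part of any of these cell types in the split was not tested.

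**Figure D4:**
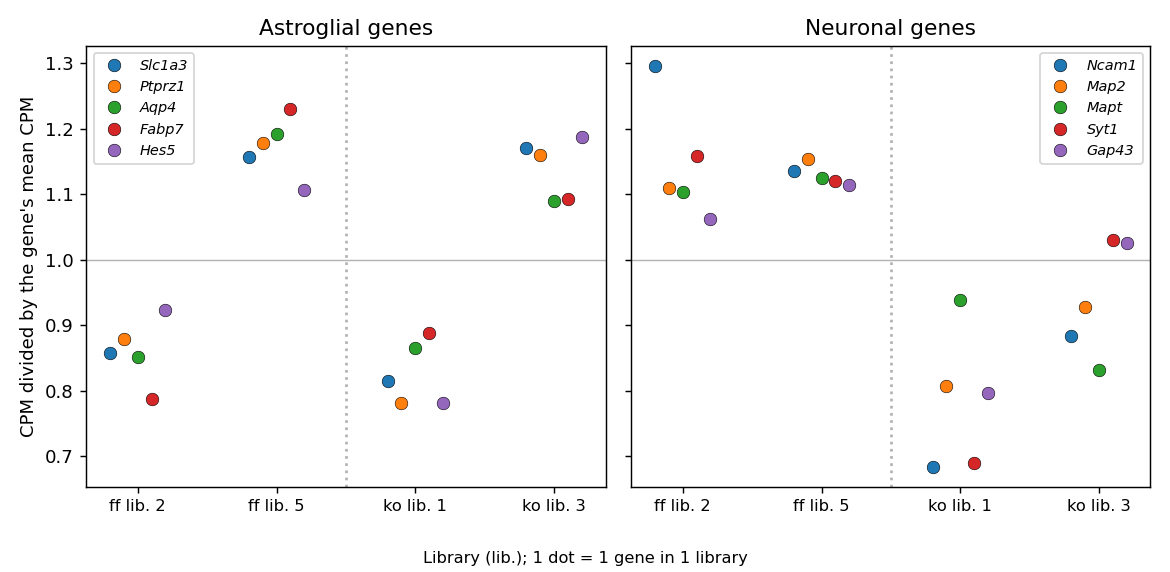
CPM of 5 astroglial (left) and 5 neuronal genes (right) in each library, divided by the gene's mean over the 4 libraries; each dot is 1 gene in 1 library and the dotted line parts ff from ko. The astroglial genes are high in ff 5 and ko 3, with ff 5 at 1.2 to 1.56 times ff 2. They were grouped after their values were seen and leave out Nes and Vim, which do not have this order. Of the 12 tested progenitor genes 7 have it, beside 14% of all genes. The 5 neuronal genes lie lower in both ko libraries than in both ff libraries, and were chosen after their values were seen. Of all 23 neuron genes 8 lie so, beside 23.8% of all genes. Another 8 have ff 5 and ko 3 above the other libraries, beside 14% of all genes.

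The other cell types set beside these genes gave the following levels. Lymphocyte markers summed to 266.2 and 234.9 CPM in ff and 230.3 and 259.0 in ko, with most of it from Cd4 (135.9 CPM) and Cd79b (80.5 CPM). Whether Cd4 and Cd79b came from lymphocytes or from other cells of the isolate was not tested. Of the 11 markers tested 1 was higher in ko at the threshold, Gzma of cytotoxic lymphocytes, named after its values were seen. It had 2 and 3 counts in ff against 44 and 46 in ko and an adjusted p of 0.0131 by edgeR. The log2 fold change was above 0 for 10 of the 11, with a median of 0.71. Both ko libraries were above both ff libraries for 7 of them and below for 1, beside 25.8% and 23.8% of all genes. Ependymal and choroid plexus markers summed to 5.52, 7.45, 14.5 and 5.61 CPM in ff 2, ff 5, ko 1 and ko 3. Their Ttr had 3, 1, 137 and 13 counts and Folr1 14, 20, 30 and 12. Erythroid markers summed to 18.6 to 24.4 CPM, with 720 counts of Hba-a1 over all libraries beside those of Hbb-bs. None of these lists followed the order of the astroglial genes over all 4 libraries except the erythroid one, at 20.8, 23.7, 18.6 and 24.4 CPM.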

How the data were processed

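Poly(A) RNA of the isolates was sequenced as 150-bp read pairs, handled with CASAVA, quality filtered and aligned with HISAT2 2.0.5, per the labels' design text. GRCm39 served as the build, according to the submitters' processing notes. Which tool made the counts, with which annotation and strand setting, is not given in the sources used here. As deposited by the authors, the table holds whole-number counts per gene with no normalization. Of 26054 lines, 3 carried stray text without values and were left out. The spread within each group exceeded sampling noise (chi-square over degrees of freedom of 7.25 for ff and 13.9 for ko).

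The 37 genes, their roles and the other lists were chosen with earlier results of these data known. Genes were filtered with filterByExpr, scaled by TMM (factors 0.991 to 1.01) and tested by quasi-likelihood in edgeR 4.0.16 (robust fit, R 4.3.3), with Benjamini-Hochberg adjustment over all 15840 genes and a threshold of 0.05. Standard errors were derived from edgeR's log2 fold change and test statistic, and intervals use them with edgeR's degrees of freedom. The fits were also run on simulated counts, which did not check the intervals. An exact two-sided permutation test of 2 against 2 libraries could reach no p under 0.333. CPM use the scaled library sizes, and CPM per kb divide by the longest GENCODE M21 transcript. Promoters came from RefSeq on GRCm38.p6 and 29 of the 37 genes matched; no coordinates were taken for the counts, whose build differs.

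Values are named in full for the 4 largest rises and falls with a mean of at least 1 CPM, the 6 highest levels per kb and the highest of each role. From other pathway lists come genes past the threshold (up to 3), or else the 2 most expressed, of which 1 is not reported here, and from cell type marker lists the 2 most expressed. Other genes were named after their values were seen. Alternatives were DESeq2 1.42.0, limma-voom (limma 3.58.1), DESeq2 size factors, no scaling, no filter, at least 50 counts in 2 libraries, a correction for length and GC content of transcripts (known for 90.8% of genes) and each library left out.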

Additional observations from a re-analysis of the deposited data

How the results depend on the processing

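Of the tested progenitor and neuron genes 0 passed the threshold as reported. DESeq2 and the fit without scaling gave 1 each, the fit without a filter gave 4, and leaving out a library gave 0 to 8. Over the whole table, where 270 passed, DESeq2 gave 566, limma-voom 175, no filter 1386 and leaving out a library 198 to 1213. With a library left out, the median of all tested members ranged from -0.33 to 0.01, that of the progenitor genes from -0.24 to 0.19 and that of the neuron genes from -0.45 to -0.05. A fit that leaves out a library holds 1 lone sample in a group, which is assumed to vary like the others. Over 11 alternatives, 360 values of single genes were counted as staying on their side of the threshold, and 17 crossed to pass it. The 360 include Emx1, Neurod2 and Tbr1 under DESeq2, which had no adjusted p there and were counted by their sign. The sign changed at least once for 19 genes, none of which passed in the fit reported first. The cause of these shifts was not tested. No paired analysis was possible because the groups share no replicate number. Genes with few counts, such as Eomes and Neurog2, could not be tested at this depth, and 2 libraries in each group limit every comparison.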
